A study of Mus musculus with 38 samples.

Results

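RNA of 10 receptor tyrosine kinases that have been studied as growth signals or drug targets in kidney cancer was followed: Met, Axl, Egfr, Erbb2, Erbb3, Fgfr1, Fgfr2, Igf1r, Ret and Kit. They were chosen by name, and all 10 symbols were found among the 21705 genes of the expression table. The table held 38 RNA sequencing libraries of mouse kidney tumours, of cell lines made from such tumours, and of normal mouse kidney, which fell into 10 groups.

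The mice carried a MYC transgene under a Tet operator, switched on by doxycycline (Dox) through the reverse tetracycline transactivator rtTA, and the Ksp-cadherin promoter limited rtTA to kidney tubule epithelium. Tumours labelled MYC+ carried this transgene with no engineered loss and are called MYC tumours. Tumours labelled Vhl-/- MYC+ had also lost Vhl through a tamoxifen-inducible Cre under the Ksp promoter, and are called VM tumours. Those labelled Vhl-/- MYC+ Ink-/-/Arf-/- lacked Cdkn2a (the Ink4a/Arf locus) in the germline as well, and are called VIM tumours. Each tumour group had 3 libraries, all from mice kept on Dox, and the MYC group came from only 2 mice, with replicate 1 from mouse 2917 and replicates 2 and 3 from mouse 2983. The normal kidneys were 5 wild type, vehicle-treated samples, of which 2 are titled B6 and 3 are titled KT, and no age is given in the labels for any animal. From each tumour genotype there was 1 cell line, MYC-2983, VM-3055 or VIM-3039, with 4 libraries kept on Dox and 4 libraries from which Dox was withdrawn, collected 24 h after plating. Line and genotype can therefore not be told apart in the cells, and no label says that the 4 libraries of a group were separate cultures, so p-values for the cells measure only the spread between libraries. VM tumour replicate 2 carries the same mouse number, 3055, as the VM line.

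Receptor tyrosine kinases are surface proteins that pair up when a ligand binds, phosphorylate each other, and recruit adaptors that start the RAS-MAPK and PI3K-AKT cascades. Some work with co-receptors, and negative regulators such as the Sprouty, SPRED and dual-specificity phosphatase proteins are induced by the signal and limit it. In the kidney, Ret and its ligand Gdnf direct branching of the ureteric bud, Met and Egfr act in tubule repair, and MET and AXL are targets of drugs given in renal cell carcinoma.

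Levels are given in units of the deposited table, in which the authors scaled each library so that the upper quartile of its genes was about 1000. Estimated depth ran from 8.22 to 36.6 M reads per library (M, mega). Medians with Dox were 25.6 M in MYC-2983, 14.9 M in VM-3055 and 18.8 M in VIM-3039 cells. Medians in tissues were 9.59 M in MYC, 11.8 M in VM and 9.90 M in VIM tumours and 13.4 M in kidney. A level worth 3 reads in a library was taken as its floor, which lay between 1.16 and 5.65 units, and this floor covers counting error only. Of the 10 receptors only Ret and Kit had libraries at or under the floor.

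The engineered genes were read first. In cells with Dox, Vhl averaged 451 units in the MYC-2983, 13.1 in the VM-3055 and 12.7 in the VIM-3039 line. In tissues Vhl averaged 686 units in kidney, 499 in MYC, 53.6 in VM and 252 in VIM tumours. With Dox, Cdkn2a averaged 3171 units in the MYC-2983, 3804 in the VM-3055 and 29.98 in the VIM-3039 line. It averaged 1013 units in MYC, 4013 in VM and 53.1 in VIM tumours, and 1.37 in kidney. Vhl was thus lower in the lines and tumours labelled with its loss, and both VM and VIM tumours kept more Vhl RNA than the line of their genotype. Cdkn2a was lower in the VIM line than in the other lines. In tissues it did not set VIM tumours (30.1 to 95.5 units) apart from MYC tumours, whose values ran from 59.3 to 2872. The mouse Myc row does not count the transgene apart and does not check the Dox labels. It averaged 676 units with and 1831 without Dox in MYC-2983, 384 and 1364 in VM-3055, and 381 and 1479 in VIM-3039 cells. In tissues it averaged 66.9 in kidney against 345 in MYC, 557 in VM and 404 in VIM tumours. Of 7 kidney epithelium markers, Cdh16 was the most abundant in every tumour and kidney library, and Pax2 was at 0 in VM tumour replicates 2 and 3 and VIM tumour replicate 3.

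Between receptors, levels were compared after division by the merged exon length of each gene, in units per kilobase. Axl, the receptor for Gas6 and protein S, had the highest level per kilobase of the 10 in all 6 cell groups, from 590 in MYC-2983 cells with Dox to 2449 in VIM-3039 cells without Dox. Met, the receptor for hepatocyte growth factor, came next in 5 of these groups, from 495 to 1486 units per kilobase, and was behind Igf1r at 589 against 774 in VIM-3039 cells without Dox. Before division Met was above Axl in MYC-2983 cells with (3979 against 2968 units) and without Dox (7183 against 7085). The same held in VM-3055 cells with (5969 against 4268) and without Dox (11469 against 9581), while Axl was above Met in VIM-3039 cells. The exon length of Igf1r is uncertain, and its order against Met depends on it, with Met higher in the units of the table in every group. In tumours Igf1r, the receptor for insulin-like growth factors, was on this basis at 876 units per kilobase in MYC, 758 in VM and 512 in VIM tumours, and Met at 525, 604 and 376. Before division Met was at 4052, 4663 and 2906 units and Igf1r at 3921, 3394 and 2291. In kidney the order began with Met at 761, Igf1r at 687 and Erbb3 at 212 units per kilobase, and Axl was in place 7 with 99.6. Kit was lowest in the VM-3055 and VIM-3039 cells, where it was at 0, Fgfr2 was lowest in VIM tumours with 3.39, and Ret was lowest in the other groups.

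**Figure D1:**
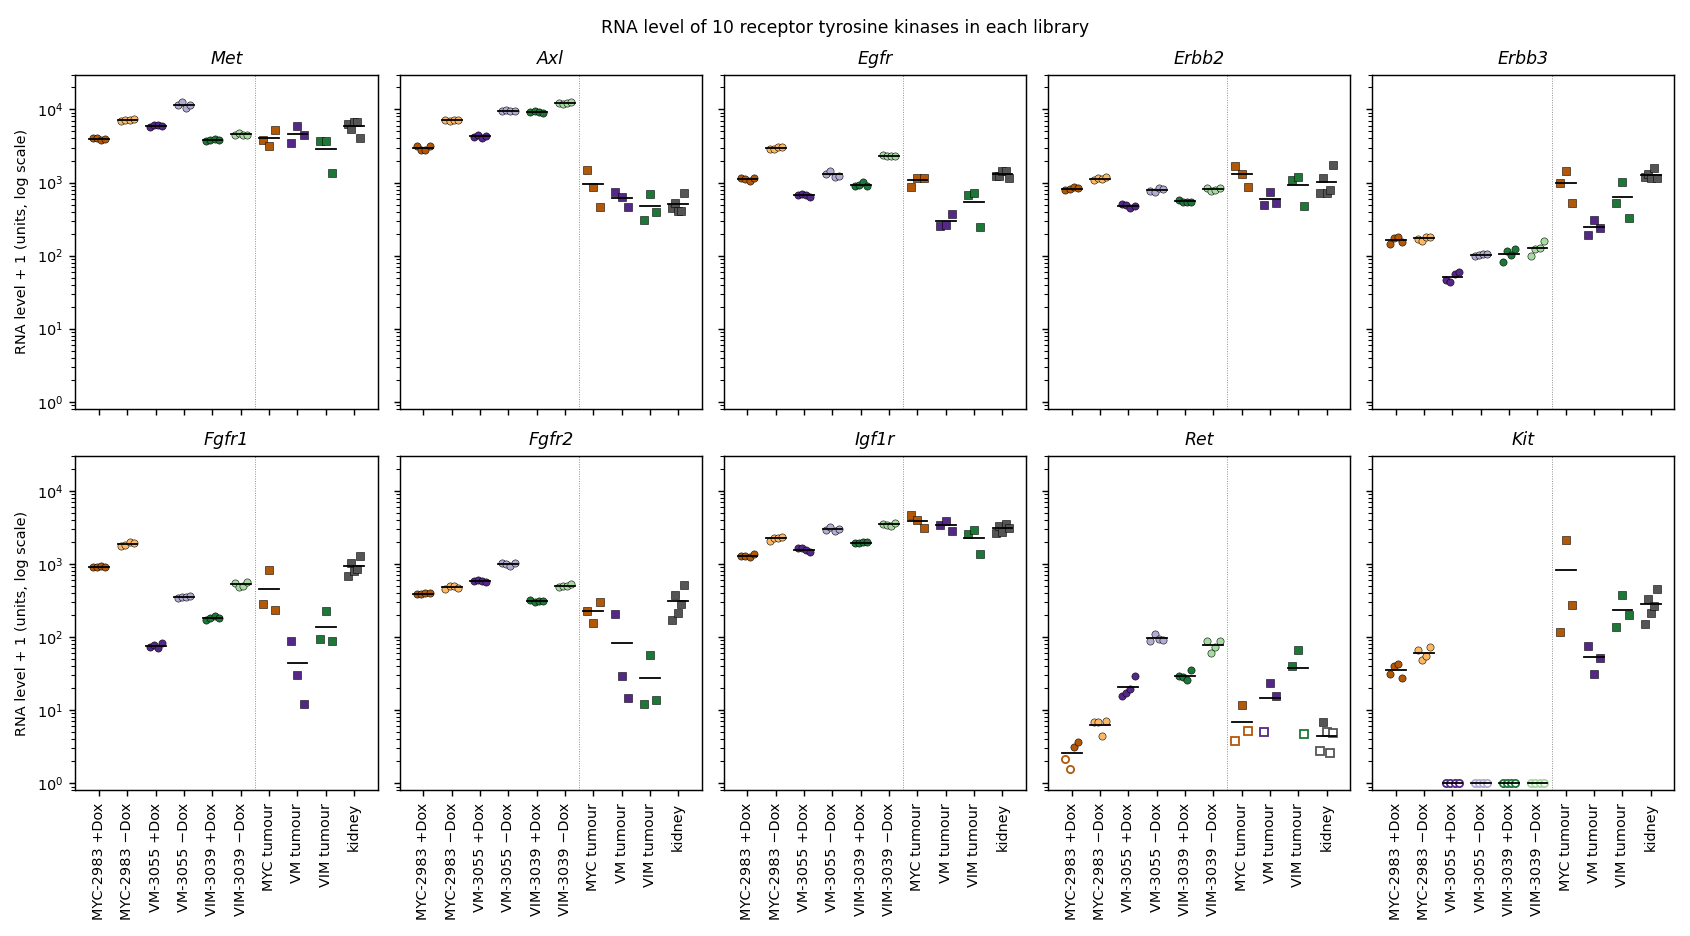
Level of each receptor plus 1, in units of the deposited table on a log axis, for every library of the 10 groups; circles are cells with (+Dox) or without (−Dox) doxycycline, squares are tissues, horizontal lines are group means, and open symbols are libraries at or under the floor of 3 reads. Axl lay between 2753 and 12649 units in cells and between 311 and 1496 in tissues, and Kit was at 0 in all 16 VM-3055 and VIM-3039 libraries.

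Met stood at 4040, 4022, 3869 and 3983 units in MYC-2983 cells with Dox and at 6945, 7128, 7230 and 7428 without it. In VM-3055 cells the values were 5799, 6042, 6077 and 5960 with and 11539, 12550, 10368 and 11418 without Dox. VIM-3039 cells had 3723, 3825, 3965 and 3761 with and 4474, 4795, 4521 and 4400 without. All libraries without Dox were above those with Dox in each line, and VIM-3039 had the narrowest gap. Tumours gave 3871, 3113 and 5171 units for MYC, 3523, 5993 and 4472 for VM, and 3676, 3692 and 1349 for VIM. The kidneys gave 6394, 5378, 6722, 6818 and 4053. VM-3055 and MYC-2983 cells without Dox were highest and apart from the rest. VIM tumours had the lowest mean with replicate 3 the lowest library, and 6 of the 9 pairs of neighbours in the order of group means overlapped.

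Axl had 3180, 2819, 2753 and 3122 units in MYC-2983 cells with Dox against 7108, 7045, 7052 and 7137 without it. VM-3055 cells had 4176, 4441, 4120 and 4334 with and 9503, 9951, 9428 and 9442 without Dox, and VIM-3039 cells 9089, 9508, 9282 and 9029 with and 12326, 11998, 12331 and 12649 without. Each line again had higher values in every library without Dox, and VIM-3039 cells with Dox overlapped VM-3055 cells without it. In tissues Axl was at 1496, 880 and 460 units in MYC, 731, 638 and 467 in VM and 311, 704 and 393 in VIM tumours, and at 443, 520, 407, 410 and 727 in kidney. All 4 tissue groups overlapped, MYC tumour replicates 1 and 2 exceeded every other tissue library, and no tissue library reached the lowest cell library.

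Egfr, the epidermal growth factor receptor, had 1157, 1125, 1059 and 1159 units in MYC-2983 cells with Dox and 2879, 2900, 3089 and 3077 without it. VM-3055 cells gave 675, 704, 665 and 642 with and 1317, 1419, 1188 and 1223 without Dox, and VIM-3039 cells 881, 934, 1021 and 886 with and 2409, 2282, 2270 and 2311 without. Values with and without Dox did not overlap in any line, as for 70.5%, 68.1% and 70% of all genes. Tumours had 877, 1170 and 1148 units for MYC, 252, 263 and 372 for VM and 665, 714 and 242 for VIM, and kidneys had 1235, 1207, 1434, 1432 and 1163. The VM tumours and VIM tumour replicate 3 formed the low end, and the MYC tumours overlapped the kidneys through replicate 2 alone.

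Fgfr1, a fibroblast growth factor receptor, was at 899, 904, 924 and 899 units in MYC-2983 cells with Dox and at 1781, 1785, 1972 and 1937 without it. The other lines were lower throughout, with 72.4, 76.6, 70.5 and 82.5 with and 343, 352, 352 and 366 without Dox in VM-3055, and 168, 180, 191 and 179 with and 547, 487, 504 and 567 without Dox in VIM-3039 cells. Tumour values spread widely, at 285, 823 and 236 units in MYC, 87.9, 28.9 and 11.1 in VM and 94.2, 229 and 88.1 in VIM tumours, below kidneys at 692, 1041, 797, 853 and 1294. MYC tumour replicate 2 was the only tumour library within the kidney range, and the order of the lines, MYC-2983 above VIM-3039 above VM-3055, was also that of the tumour means.

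Ret, the receptor for the Gdnf family, was near the floor in MYC-2983 cells, with 1.12, 0.544, 2.17 and 2.62 units with Dox, of which 2 were at or under the floor, and 5.91, 5.92, 3.47 and 5.98 without. It was higher in VM-3055 cells, at 14.8, 16.2, 18.7 and 28.1 with and 86.4, 110, 93.0 and 89.6 without Dox, and in VIM-3039 cells, at 28.5, 27.0, 24.9 and 33.9 with and 87.3, 59.1, 72.4 and 86.3 without. Tumours had 2.80, 10.8 and 4.24 units for MYC, 3.99, 22.7 and 14.8 for VM and 39.5, 65.2 and 3.67 for VIM, and kidneys had 1.73, 5.84, 4.02, 1.63 and 3.80. MYC tumour replicates 1 and 3, VM tumour replicate 1, VIM tumour replicate 3 and 4 of 5 kidneys were at or under their floor, and all 9 pairs of neighbours in the order of group means overlapped.

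Kit, the receptor for stem cell factor, was at 30.2, 39.2, 42.3 and 26.2 units in MYC-2983 cells with Dox and at 66.3, 48.03, 53.8 and 72.4 without it, and at 0 in all 16 libraries of the other lines. MYC tumours gave 115, 2113 and 277 units, VM tumours 74.6, 29.9 and 50.6, VIM tumours 136, 375 and 198, and kidneys 149, 334, 212, 261 and 449. MYC tumour replicate 2 stood far above every other library, and the 3 VM tumours were below every other tissue library.

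Erbb2, the EGFR-family receptor with no ligand of its own, ran from 481 ± 28.8 (SD, n = 4) in VM-3055 cells with Dox to 1130 ± 48.6 (n = 4) in MYC-2983 cells without it. It averaged 1286 ± 393 (n = 3) in MYC, 591 ± 133 (n = 3) in VM and 923 ± 387 (n = 3) in VIM tumours and 1024 ± 448 (n = 5) in kidney. The kidneys ran from 720 to 1762 units around a median of 779, so the highest of them raises this mean. Erbb3, a neuregulin receptor with a weak kinase, was at 50.6 to 171 units in the means of the cell groups, with 983 ± 465 in MYC, 246 ± 56.9 in VM and 624 ± 354 in VIM tumours (n = 3 each) and 1274 ± 182 (n = 5) in kidney. All tissue libraries had more Erbb3 than any cell library. Fgfr2, whose epithelial form binds Fgf7 and Fgf10, was highest in VM-3055 cells, at 1001 ± 41.7 without and 583 ± 18.9 with Dox (n = 4 each). In tissues its means went from 312 ± 140 in kidney (n = 5) to 226 ± 71.8 in MYC, 81.3 ± 105 in VM and 26.4 ± 24.9 in VIM tumours (n = 3 each). Igf1r averaged 1302, 1567 and 1959 units with Dox and 2233, 2977 and 3464 without Dox in the MYC-2983, VM-3055 and VIM-3039 lines, and 3921 ± 796 in MYC, 3394 ± 525 in VM and 2291 ± 825 in VIM tumours (n = 3 each) and 3076 ± 369 (n = 5) in kidney. In the order of 10 group means, neighbours overlapped in 7 of 9 pairs for Erbb2 and Kit, 6 for Erbb3 and Igf1r, 5 for Fgfr2, Egfr and Fgfr1, and 4 for Axl.

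Differences were tested with limma on log2(value + 1), a scale that understates changes of low genes, over all genes of the table that passed a filter on low values. A gene was called where the Benjamini-Hochberg adjusted p was under 0.05 and the log2 difference was over 1 in size, in a two-sided test. The first question was what differed between cells with and without Dox in each line, taken as with Dox minus without Dox.

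Of 27 ligands tested in MYC-2983 cells, 1 was higher and 12 were lower (median log2 difference −0.92 against −0.13 for all genes tested). The counts were 1 and 6 of 22 in VM-3055 (−0.69, or −0.53 with genes at the floor set to their bound, against −0.26), and 2 and 10 of 23 in VIM-3039 cells (−0.37 against −0.15). Gdnf, the Ret ligand, fell in all lines, from means of 92.9 to 25.5 units in MYC-2983 (−1.84), from 182 to 24.6 in VM-3055 (−2.86) and from 146 to 58.1 in VIM-3039 cells (−1.32). Fgf1, a ligand of both Fgfr1 and Fgfr2, fell by 1.89, 1.57 and 2.09 on the log2 scale in the same order. Igf1 fell by 2.13 in MYC-2983 cells, from 201 to 45.2 units. Nrg1, a ligand of Erbb3, fell by 1.53 in VM-3055 cells, from 900 to 311. Pros1, which encodes the Axl-family ligand protein S, fell by 1.28 in VIM-3039 cells, from 224 to 91.8. Kitl, the Kit ligand, was higher with Dox in VIM-3039 cells, at 646 against 290 units (1.16), while Kit itself was at 0 there. Hgf, the Met ligand, was at or under the floor in every cell library.

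Among the receptors, 4 of 10 tested were called in MYC-2983 cells, 4 of 9 in VM-3055 and 3 of 9 in VIM-3039 cells, all lower with Dox, where 19.5%, 24.8% and 24.3% of all genes tested were called. Lower calls made up 15%, 18.9% and 16.6% of all genes and higher calls 4.49%, 5.92% and 7.67%. The members had a median log2 difference of −0.82, −0.94 and −0.68 against −0.13, −0.26 and −0.15 for all genes tested, and all were negative, against 58.2%, 62.9% and 57.8% of all genes, though Erbb3 turned positive in MYC-2983 with TMM (0.03), quantile (0.15) and voom (0.05) and in VIM-3039 with quantile (0.09). At any size of change, 9 of 10, 9 of 9 and 8 of 9 passed the adjusted p, as did 75.5%, 73.8% and 75.3% of all genes.

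Egfr fell with Dox by 1.41 in MYC-2983 cells (SE 0.0337, adjusted p = 7.44e-17) and by 1.32 in VIM-3039 cells (SE 0.043, adjusted p = 3.27e-17), and its difference in VM-3055 cells was −0.94 (adjusted p = 6.1e-11), under the size limit. Axl fell by 1.26 in MYC-2983 (SE 0.0379, adjusted p = 1.4e-15) and by 1.17 in VM-3055 cells (SE 0.043, adjusted p = 6.88e-14), and differed by −0.42 in VIM-3039 cells (adjusted p = 4.71e-11). The Dox difference of Axl was smaller in VIM-3039 than in MYC-2983 by 0.84 (adjusted p = 1.59e-11) and than in VM-3055 by 0.75 (adjusted p = 1.36e-10). Met too had its smallest difference in VIM-3039 cells, with −0.85 in the MYC-2983, −0.94 in the VM-3055 and −0.25 in the VIM-3039 line (adjusted p = 2.15e-15, 2e-11 and 4.91e-07), none past the size limit. VIM-3039 differed from MYC-2983 by 0.60 and from VM-3055 by 0.69 (adjusted p = 1.35e-10 and 2.27e-08).

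Fgfr1 was called in all lines, at −1.04 in MYC-2983 (SE 0.034, adjusted p = 4.76e-15), −2.21 in VM-3055 (SE 0.087, adjusted p = 1.54e-13) and −1.54 in VIM-3039 cells (SE 0.067, adjusted p = 4.72e-15). Ret was likewise called in all lines, at −1.33 (SE 0.319, adjusted p = 0.00105), −2.27 (SE 0.187, adjusted p = 4e-09) and −1.38 (SE 0.167, adjusted p = 1.6e-07). Erbb3 was called in VM-3055 cells alone, at −1.003 (SE 0.132, adjusted p = 1.91e-06), from 97.0, 102, 105 and 103 units without Dox to 45.8, 42.6, 55.2 and 58.8 with it. Its intervals in the other lines covered 0, from −0.24 to 0.09 in MYC-2983 and from −0.56 to 0.02 in VIM-3039 cells. The VM-3055 difference lay 0.93 below that of MYC-2983 (adjusted p = 2.57e-05) with a difference of 0.74 between VIM-3039 and VM-3055 (adjusted p = 0.00805). The former was not called in the main fit, and was called without replicate 4 of VM-3055 cells with Dox (−1.001). Erbb2, Fgfr2 and Igf1r had differences between −0.29 and −0.93, all past the adjusted p and none past the size limit, and Kit differed by −0.79 in MYC-2983 cells (adjusted p = 0.000299) and was not tested elsewhere.

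In the test of the Dox difference between lines, 1 receptor was called for VM-3055 against MYC-2983, where 8.78% of genes were (3.26% higher and 5.53% lower). This was Fgfr1, at −1.17 (95% interval −1.32 to −1.02, adjusted p = 6.91e-11), and −0.65 after quantile normalization. For VIM-3039 against MYC-2983 and against VM-3055 limma called 0 receptors, beside 9.06% (4.54% higher and 4.52% lower) and 6.05% (3.7% and 2.35%) of genes. In these tests 5 of 10 and 6 of 9 receptors had an unadjusted p under 0.05, as had 53.6% and 42% of all genes. The 10 tested against MYC-2983 include Kit, which was at 0 in VM-3055 and VIM-3039 cells. Its value in both tests, 0.79, is the Dox difference of MYC-2983 with the sign turned. Ret differed by −0.94 for VM-3055 against MYC-2983 (adjusted p = 0.0457) and by 0.89 for VIM-3039 against VM-3055 cells (adjusted p = 0.0123). The former was called with a pseudocount of 10 (−1.45) and without replicate 1 (−1.01) or 2 (−1.16) of MYC-2983 or 4 (−1.12) of VM-3055 cells with Dox. The latter was called without this last library (1.07).

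Scaling moved these values. The median log2 difference of genes with a mean of 50 units or more was −0.17 in VM-3055 cells under the authors' scaling and 0.06 after TMM rescaling, with −0.06 and 0.05 in MYC-2983 and −0.09 and 0.06 in VIM-3039 cells. Relative to the authors' median, Axl was at −1.20, −1.001 and −0.33 and Egfr at −1.35, −0.77 and −1.23 in the MYC-2983, VM-3055 and VIM-3039 lines. Fgfr1 was then at −0.99, −2.05 and −1.46, Ret at −1.27, −2.10 and −1.29, and Met at −0.80, −0.77 and −0.16. Erbb3 was at −0.84 in VM-3055 cells on this basis. The split of all calls moved too, from 678 higher and 2264 lower to 1073 and 1480 under quantile normalization in MYC-2983 cells. It went from 847 and 2707 to 1336 and 2030 with TMM and 1490 and 1591 with quantile in VM-3055, and from 1074 and 2322 to 1405 and 1901 with TMM and 1529 and 1572 with quantile in VIM-3039 cells. Under single alternatives Fgfr1 in MYC-2983 cells went to −0.93 with TMM and −0.91 with voom, and Axl in VM-3055 cells to −0.94 with TMM. Ret went to −0.94 in MYC-2983 and −0.83 in VIM-3039 cells with quantile and −0.40 in MYC-2983 cells with a pseudocount of 10. Erbb3 in VM-3055 cells was under the size limit with TMM (−0.78), quantile (−0.40), voom (−0.91) and a pseudocount of 10 (−0.89), and without replicate 1 (−0.96) or 2 (−0.93) with Dox or replicate 3 (−0.99) or 4 (−0.998) without Dox.

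**Figure D2:**
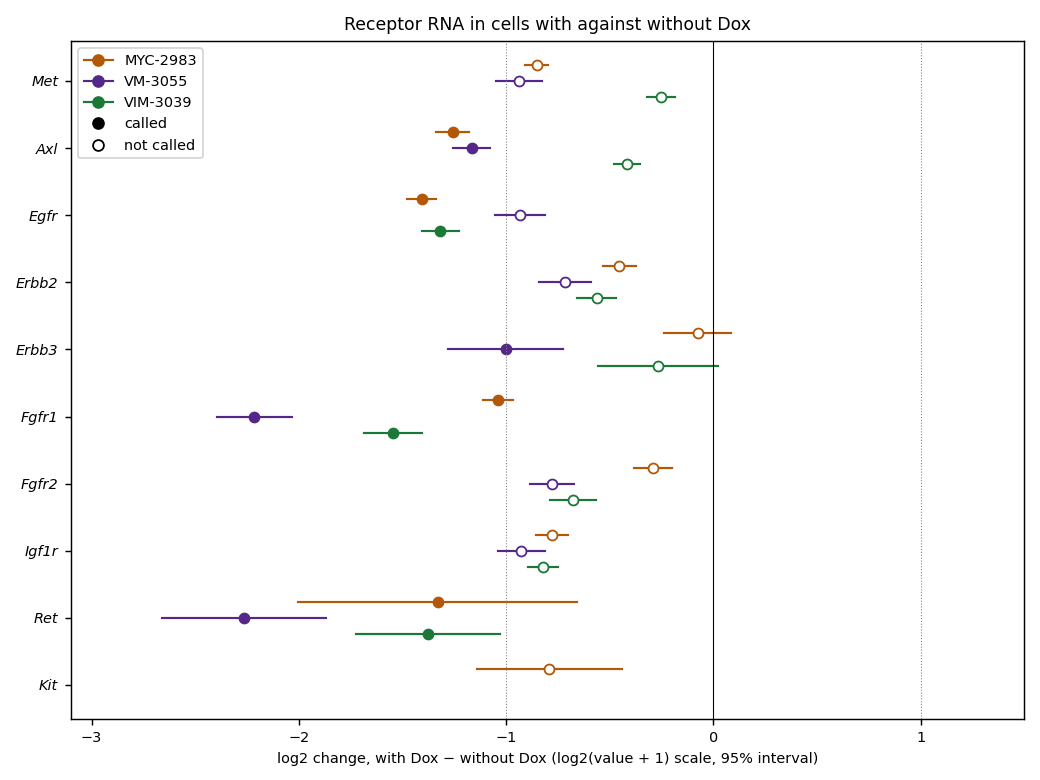
Difference in log2(value + 1) between cells with and without Dox for each receptor (horizontal axis) in the 3 lines, with 95% intervals from limma (n = 4 libraries per group); filled points were called, dotted lines mark −1 and 1, and Kit was tested in MYC-2983 alone. All points lay below 0, from −0.08 for Erbb3 in MYC-2983 to −2.27 for Ret in VM-3055, and Erbb3 turned positive in MYC-2983 (TMM, quantile and voom) and VIM-3039 cells (quantile).

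Co-receptors had 1 higher and 3 lower of 13 in MYC-2983 cells, 0 and 3 of 12 in VM-3055 and 0 and 2 of 12 in VIM-3039 cells (medians −0.55, −0.54 and −0.17). Cd44, whose variant forms assist Met, fell from 13113 to 5729 units in MYC-2983 (−1.20) and from 11064 to 5032 in VIM-3039 cells (−1.14). Itgb4, an integrin that binds to Met, fell by 1.51 in VM-3055 cells. The glypican Gpc3 rose from 121 to 304 units in MYC-2983 cells (1.33). Of 31 adaptors and signalling proteins 3, 4 and 5 were lower and 0 higher in the MYC-2983, VM-3055 and VIM-3039 lines (medians −0.11, −0.35 and −0.30). The docking proteins Gab2 and Irs1 fell in all lines, Gab2 by 1.28, 1.54 and 1.65 and Irs1 by 1.13, 1.59 and 1.05.

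Feedback inhibitors had 0 higher in all lines and 10 of 24, 8 of 23 and 9 of 24 lower in the MYC-2983, VM-3055 and VIM-3039 lines (medians −0.81, −0.74 and −0.87). Il17rd, which restrains FGF receptor signalling, fell by 1.85, 2.11 and 1.94, and Errfi1, an inhibitor of the EGFR family, fell from 5398 to 1585 units in MYC-2983 (−1.77) and from 5092 to 1575 in VM-3055 cells (−1.69). Of 13 genes induced by MAPK signalling, 4 of which are also on the inhibitor list, 0 were higher and 8 lower in MYC-2983, 0 and 3 in VM-3055, and 1 and 5 in VIM-3039 cells (medians −1.03, −0.73 and −0.92). Dusp6, an ERK phosphatase on both lists, fell by 1.40, 1.79 and 1.07, from 870 to 329, from 3166 to 917 and from 3174 to 1510 units, and Phlda1 fell by 1.48, 1.24 and 1.92. Fosl1, a subunit of AP-1, was the gene that rose in VIM-3039 cells, from 212 to 500 units (1.24).

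Of the receptor tyrosine kinases outside the 10, 5 were higher and 8 lower of 30 in MYC-2983, 1 and 7 of 27 in VM-3055 and 1 and 6 of 24 in VIM-3039 cells (medians −0.48, −0.61 and −0.40; −0.45 in VM-3055 with genes at the floor set to their bound). Fgfr3 went against Fgfr1 in MYC-2983 cells and rose from 51.4 to 136 units (1.39), Erbb4 fell by 1.38 in MYC-2983 and by 1.88 in VM-3055 cells, and Mertk, of the Axl family, fell from 64.1 to 11.5 units in VM-3055 cells (−2.48).

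Markers of cell types moved with Dox. Of 7 fibroblast and mural markers, 5 were lower with Dox and 0 higher in MYC-2983 cells, and all 7 were tested. Their summed level was 17170 units on average (15804 to 18603) with and 68534 (67360 to 71741) without Dox. Acta2 was the most abundant, at 17021 and 67920. In VM-3055 cells the sum was 5.12 with and 36.7 without Dox with Lum and Thy1 at 0, and in VIM-3039 cells it was 550 and 5054 with Thy1 at 0. Kidney epithelium markers summed to 12484 units with and 18078 without Dox in MYC-2983, 6271 and 13668 in VM-3055, and 6092 and 10665 in VIM-3039 cells. Cdh16 and Pax8 made up most of these sums, and Cdh1 went the other way, at 317 and 267, 493 and 376, and 85.5 and 41.9. Epcam was also higher with Dox in MYC-2983 (55.4 against 44.2) and VIM-3039 cells (68.1 against 37.9), though not in VM-3055 cells (210 against 215). Krt18 was higher with Dox in VM-3055 cells alone (7.25 against 5.63). Of the leukocyte markers Csf1r was the most abundant, at 222 and 400, 349 and 859, and 275 and 378, and Emr1 was at 0 in all lines. The part of these markers in the receptor differences was not tested.

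The lines were then compared with each other while on Dox, and these comparisons share the libraries of each line. Between VM-3055 and MYC-2983 cells, 3 of 26 ligands were higher and 10 lower in VM-3055. The Egfr ligand Tgfa was higher there at 197 against 20.8 units (3.20), and the Axl-family ligands were lower, Gas6 at 0.638 against 318 units (at least 121-fold lower against the floor) and Pros1 at 4.81 against 422 (−6.27). Fgf1 was also lower (−3.59). In VIM-3039 against MYC-2983 cells 3 of 25 ligands were higher and 11 lower, with Areg, another Egfr ligand, at 141 against 33.2 units (2.05), and Gas6 at 21.6 against 318 (−3.86). In VIM-3039 against VM-3055 cells 7 of 24 were higher and 5 lower, with Pros1 higher (4.08) and Tgfa lower (−2.14).

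Of the receptors, 4 of 10 were called between VM-3055 and MYC-2983 cells (24.6% of all genes), 4 of 10 between VIM-3039 and MYC-2983 (23.9%) and 3 of 9 between VIM-3039 and VM-3055 cells (19.1%). In the same order 1, 2 and 3 receptors were higher and 3, 2 and 0 lower, where 6.54%, 5.66% and 9.69% of all genes were higher and 18.1%, 18.3% and 9.45% lower. Fgfr1 was lower than in MYC-2983 cells, with a difference of −3.57 in VM-3055 (SE 0.060, adjusted p = 8.76e-15) and −2.33 in VIM-3039 cells (adjusted p = 1.32e-14), and was higher in VIM-3039 than in VM-3055 cells by 1.24 (adjusted p = 6.14e-09), where the difference without Dox was 0.57 and not called. Ret was higher than in MYC-2983 cells by 3.003 in VM-3055 (SE 0.309, adjusted p = 7.46e-07) and by 3.57 in VIM-3039 cells (adjusted p = 2.28e-08). Kit, at 0 in both of these lines, was at least 13.1-fold higher in MYC-2983 than in VM-3055 and at least 14.2-fold higher than in VIM-3039 cells (adjusted p = 1.62e-10 and 6.67e-11).

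Axl was higher in VIM-3039 cells, by 1.638 over MYC-2983 (SE 0.042, adjusted p = 1.96e-13) and by 1.11 over VM-3055 (adjusted p = 2.8e-14), while without Dox these differences were 0.80 and 0.36. Erbb3 was lower in VM-3055 than in MYC-2983 cells (−1.67, adjusted p = 2.24e-08; −0.74 and not called without Dox) and higher in VIM-3039 than in VM-3055 by 1.03 (adjusted p = 1.24e-05). This last call was lost with a pseudocount of 10 (0.91), quantile (0.90) and voom (0.9998), and without VM-3055 replicate 1 (0.99) or 2 (0.95) or VIM-3039 replicate 2 (0.98) or 4 (0.96), and without Dox the difference was 0.29. Met differed by 0.59 between VM-3055 and MYC-2983, by −0.64 between VIM-3039 and VM-3055, and by −0.06 between VIM-3039 and MYC-2983 cells, where it turned positive with TMM (0.09), quantile (0.03) and voom (0.04). Without Dox the difference of Met between VIM-3039 and VM-3055 was −1.33, that of Egfr between VM-3055 and MYC-2983 was −1.22, and that of Fgfr2 was 1.06 for VM-3055 against MYC-2983 and −1.001 for VIM-3039 against VM-3055 cells.

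The median log2 difference of genes with a mean of 50 units or more was −0.14 for VM-3055 and −0.12 for VIM-3039 against MYC-2983 cells. Relative to it, Fgfr1 was at −3.43, Erbb3 at −1.53 and Ret at 3.15 for VM-3055 against MYC-2983. Calls over all genes split as 967 higher and 2668 lower for VM-3055 and 831 and 2684 for VIM-3039 against MYC-2983, and as 1937 and 1782, and 1664 and 1788, after quantile normalization.

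Co-receptors split as 2 higher and 5 lower of 13 for VM-3055 against MYC-2983, 1 and 5 of 13 for VIM-3039 against MYC-2983 and 1 and 4 of 12 for VIM-3039 against VM-3055, with Gpc3 lower than in MYC-2983 in VM-3055 cells (−5.99) and in the VIM-3039 line (at least 125-fold). Adaptors gave 1 and 2, 2 and 4, and 0 and 1 of 31, with Gab2 higher (1.49 and 2.01) and Gab1 lower (−2.17 and −1.87) in both lines than in MYC-2983. Inhibitors gave 2 higher and 6 lower of 24, 4 and 3 of 24, and 3 and 1 of 23. Grb10, an adaptor that restrains insulin and IGF receptors, was at 908 units in MYC-2983, 0.398 in VM-3055 (at least 345-fold lower) and 6551 in VIM-3039 cells (2.85 against MYC-2983). Of 13 MAPK-induced genes 2 were higher and 3 lower, 3 and 3, and 2 and 1, with Dusp6 higher than in MYC-2983 in both lines (1.47 and 2.19) and Fosl1 higher in VIM-3039 cells (3.04). Among the other receptor tyrosine kinases 5 were higher and 7 lower of 30, 2 and 15 of 30, and 4 and 8 of 27, with Ltk higher in VM-3055 than in MYC-2983 (5.94), Fgfr4 lower in VIM-3039 than in MYC-2983 (−4.36) and Erbb4 lower in VIM-3039 than in VM-3055 cells (−4.78). Of the 7 fibroblast and mural markers given above, 7 were lower in VM-3055 and 6 in VIM-3039 than in MYC-2983 cells, most of all Acta2, and Pdgfrb was at 53.1 units in MYC-2983 and 33.7 in VIM-3039 cells. Their part in these differences was not tested.

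Tumours of each genotype were compared with normal kidney, and the 3 comparisons share the 5 kidneys. Kidney KT3 stood apart, with a variance from the other kidneys of 112 to 183 times counting error, against 13.5 to 40.8 times between those. It had the lowest Met (4053 units) and the highest Axl (727), Fgfr1 (1294) and Kit (449) of the kidneys. The MYC libraries of mouse 2983 were averaged first, so that 2 mice stood against 5 kidneys. In bulk tissue, fewer cells of a type and less RNA per cell cannot be told apart. The ligand Egf fell in all genotypes, from 32636 units in kidney to 75.1 in MYC, 193 in VM and 278 in VIM tumours (−8.67, −8.59 and −7.94), and Fgf1 fell from 4055 units by 5.92, 5.90 and 5.67. In total 4 ligands were higher and 6 lower of 24 in MYC, 0 and 9 of 26 in VM, and 3 and 10 of 26 in VIM tumours (medians −0.37, −0.95 and −0.70; −0.84 in VM with genes at the floor set to their bound). Nrg1 (1.49) and Pros1 (1.40) were higher in MYC tumours. Gas6 averaged 8080 units in kidney, 3070 in MYC, 3526 in VM and 2555 in VIM tumours. Hgf ran from 5.19 to 26.6 units in kidney, from 9.26 to 324 in MYC, from 9.86 to 112 in VM and from 13.8 to 22.03 in VIM tumours.

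Of the 10 receptors, 2 were called in MYC tumours (37.1% of all genes), 6 in VM tumours (39.8%) and 6 in VIM tumours (39.6%). Of these 1 was higher in each genotype and 1, 5 and 5 were lower, where 19.4%, 17.3% and 18.9% of all genes were higher and 17.7%, 22.5% and 20.7% lower. The median log2 difference of the members was 0.03 in MYC, −1.43 in VM and −0.81 in VIM tumours, against 0.12, −0.05 and 0.01 for all genes tested. Fgfr1 was the receptor called lower in every genotype, at −1.23 in MYC (SE 0.297, adjusted p = 0.0088), −4.85 in VM (SE 0.528, adjusted p = 4.44e-05) and −2.87 in VIM tumours (SE 0.333, adjusted p = 8.5e-05). The MYC value was −0.79 without replicate 1, −0.91 without replicate 3, −0.77 with voom and −0.93 against the B6 kidneys alone, and none of these was called. With all groups in 1 fit it kept its size and was not called (adjusted p = 0.123).

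Egfr fell by 2.14 in VM tumours (SE 0.164, adjusted p = 4.89e-06) and by 1.40 in VIM tumours (adjusted p = 0.00454), with no overlap with the kidneys, and its value in MYC tumours was −0.35 (95% interval −0.72 to 0.01). Erbb3 fell by 2.38 in VM (SE 0.18, adjusted p = 4.62e-06) and by 1.17 in VIM tumours (adjusted p = 0.0101), again without overlap, as for 50.9% of all genes in VM and 48.4% in VIM tumours. Without VIM tumour replicate 3, which had the lowest Met, Egfr, Erbb2, Erbb3, Fgfr1, Igf1r and Ret of its group, the VIM values were −0.90 for Egfr and −0.79 for Erbb3, under the size limit, and Erbb3 was at −0.85 with voom. Met was called in VIM tumours alone, at −1.13 (adjusted p = 0.018), and was at −0.65 without replicate 3 and −0.83 with quantile as with voom. Against the B6 kidneys alone the VIM values of Met (−1.31), Egfr (−1.45) and Erbb3 (−1.07) were not called, and neither was that of Met against the KT kidneys alone (−1.01). In MYC and VM tumours Met differed by −0.53 (95% interval −1.04 to −0.02, adjusted p = 0.0788) and −0.34 (−0.84 to 0.16), and the VM value turned positive with quantile (0.14) and voom (0.09).

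Fgfr2 fell by 3.77 in VIM (SE 0.549, adjusted p = 0.000334) and by 2.72 in VM tumours (adjusted p = 0.0112), where replicate 1 at 202 units lay within the kidney range and replicates 2 and 3 were at 27.8 and 13.6. The VM call was lost without replicate 3 (−1.92) and against the B6 kidneys alone (−2.12). Kit fell by 2.41 in VM tumours (adjusted p = 0.000711), without overlap. In MYC tumours Kit differed by 0.50 (adjusted p = 0.625), and the value was −0.55 without replicate 2 and 2.19 (adjusted p = 0.00767) without replicate 1, which leaves 1 mouse that is assumed to vary like the kidneys.

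Ret and Axl were the receptors called higher. Ret rose by 2.50 in VIM (SE 0.812, adjusted p = 0.0266) and by 1.58 in VM tumours (adjusted p = 0.0472), against kidneys of which 4 of 5 were at or under the floor, and tumours overlapped kidneys in both. The VIM call was lost without VIM replicate 1 (2.09) or 2 (1.74) and without kidney B61 (2.35) or KT1 (2.34), and against B6 (2.65) or KT kidneys alone (2.39). The VM call was lost without VM replicate 2 (1.11) or 3 (1.40) and without kidney B61 (1.43), B62 (1.65), KT1 (1.42) or KT3 (1.637). It was also lost against B6 (1.73) or KT kidneys alone (1.48), with a pseudocount of 0.1 (1.83) or 10 (0.76), and with all groups in 1 fit (adjusted p = 0.124). Axl rose by 1.03 in MYC tumours (SE 0.335, 95% interval 0.26 to 1.80, adjusted p = 0.0311). This call was lost with TMM (0.94), with the 3 libraries taken separately (0.79), against B6 (1.24) or KT kidneys alone (0.90). It was also lost without MYC replicate 1 (0.45) or 2 (0.76), and without kidney B61 (0.997), KT2 (1.05), B62 (0.97) or KT1 (0.97). Axl differed by 0.30 in VM and −0.15 in VIM tumours. Erbb2 lay between −0.72 and 0.49 and Igf1r between −0.49 and 0.41 in the 3 genotypes, with no call.

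The median log2 difference of genes with a mean of 50 units or more was 0.10 in MYC tumours under the authors' scaling, against which Axl stood at 0.93. The calls over all genes, 3205 higher and 2912 lower in MYC, 2853 and 3721 in VM and 3135 and 3432 in VIM tumours, became 5163 and 1993, 4317 and 2850, and 4182 and 2629 with voom.

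**Figure D3:**
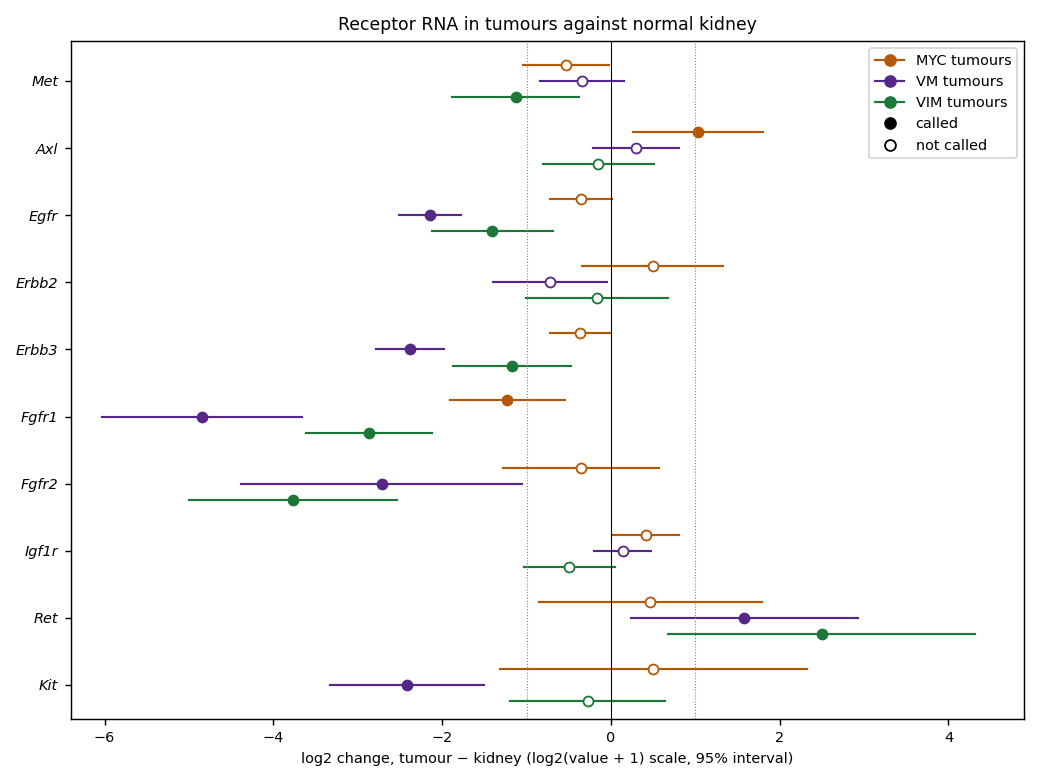
Difference in log2(value + 1) between tumours and normal kidney for each receptor (horizontal axis) by genotype, with 95% intervals from limma; MYC tumours stand for 2 mice, VM and VIM tumours for 3 libraries each and kidney for 5, filled points were called and dotted lines mark −1 and 1. Fgfr1 lay below −1 in every genotype, from −1.23 in MYC to −4.85 in VM tumours, and uncalled points that turned positive under another scaling were Egfr, Erbb3 and Fgfr2 in MYC (voom), Met in VM (quantile and voom), and Axl, Erbb2 and Kit in VIM tumours (voom).

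Of 14 co-receptors 5 were higher and 2 lower in MYC tumours, 5 and 4 in VM, and 4 and 2 in VIM tumours (medians 0.86, or 0.69 with genes at the floor set to their bound, −0.34 and −0.28). Cd44 rose from 70.5 units in kidney by 4.80, 4.39 and 4.12, and the syndecan Sdc1 by 2.19, 1.87 and 1.91. Kl, the klotho co-receptor of FGF receptors, fell from 21490 units to 2014, 411 and 475 (−3.43, −5.91 and −5.91). Gfra1, the Ret co-receptor, was at 62.2 units in kidney and 2.26 in VM tumours (at least 15.6-fold lower). The kidneys ran from 18.7 to 166 units for Gfra1, and the highest of them raises this bound. Adaptors gave 6 higher and 3 lower, 4 and 5, and 1 and 5 of 31 (medians 0.08, −0.02 and −0.39), with Nras higher by 1.84, 1.69 and 1.32, and Irs1 lower in VM (−3.15) and VIM tumours (−2.68).

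Inhibitors gave 3 higher and 6 lower, 3 and 9, and 2 and 13 of 24 in MYC, VM and VIM tumours (medians −0.01, −0.68 and −1.19). Errfi1 fell from 13844 units in kidney by 3.20, 3.13 and 2.89, Dusp4 fell by 4.19 in VM and 3.73 in VIM tumours, and Lrig3 rose by 1.83 in MYC and 2.26 in VM tumours. MAPK-induced genes gave 4 higher and 6 lower, 4 and 4, and 4 and 7 of 13 (medians −0.86, −0.50 and −1.12). Fos rose by 4.26, 4.31 and 3.18 and Egr1 by 3.98, 3.14 and 2.87, while the transcription factor Etv5 fell by 1.84, 3.93 and 3.41.

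The receptor tyrosine kinases outside the 10 gave 5 higher and 9 lower, 2 and 12, and 2 and 16 of 34 (medians −0.40, −0.68 and −0.92; −0.67 in VIM with genes at the floor set to their bound). Mst1r, a close relative of Met, rose from 12.3 units in kidney to 125 in MYC, 138 in VM and 299 in VIM tumours (2.72, 3.04 and 4.59). The collagen receptor Ddr2 rose by 2.81, 1.53 and 1.76. Insrr, of the insulin receptor family, was at least 125-fold lower in MYC tumours and fell by 8.15 in VM and fell by 7.47 in VIM tumours. Erbb4 rose by 2.002 in MYC and fell by 3.98 in VIM tumours.

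Markers of kidney cell types moved with the tumours. All 7 proximal tubule markers were lower in every genotype, with Slc34a1 the most abundant in kidney. Their sums were 295079 units in kidney against 8982 (4197 to 18302) in MYC, 7727 (6986 to 9051) in VM and 7524 (3122 to 11288) in VIM tumours. All 6 markers of the loop and distal tubule and all 8 of the collecting duct were lower too, at 109384 against 995 (44.8 to 2846), 8.30 and 2183 (71.6 to 6300) for the former, with Umod leading in kidney. Replicate 2 held most of the sum in MYC as in VIM tumours. The latter summed to 10389 against 138 (25.2 to 219), 14.4 and 641 (103 to 1708), with Hsd11b2 leading in kidney. Umod, Kcnj1 and Cldn16 were at 0 in VM tumour replicates 1 and 3, and Aqp2 was at 0 in all 3 VM tumours. Of 7 endothelial markers 7, 6 and 7 were lower in MYC, VM and VIM tumours, and their list shares Kdr, Tek, Flt1 and Tie1 with the other receptors above. Endothelial sums were 5280 in kidney against 914 (227 to 1795), 1068 (305 to 2261) and 847 (522 to 1136) in the tumours. Leukocyte sums were 1305 in kidney and 2752, 1536 and 2463 in tumours, led by Csf1r or Cd68, and the markers did not move alike. Cd68 was at 33.5 units in kidney and 488, 468 and 1051 in tumours, while Ptprc was at 308 in kidney and 250, 73.7 and 188 in tumours. Cd3e was at 0 in all 3 VIM tumours. The part of these cell types in the receptor differences was not tested.

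Fibroblast and mural markers summed to 2458 units in kidney (1580 to 4019) and to 957, 6489 and 3390 in the 3 MYC tumours, with Pdgfrb, Col1a1 and Acta2 the most abundant in turn, and averaged 876 in VM and 1364 in VIM tumours. The MYC tumour with the highest sum, replicate 2, was also the one with Kit at 2113 and Fgfr1 at 823 units, and its loop and distal tubule markers summed to 2846 units against 44.8 and 93.2 in the other MYC tumours. The part of these cells in both values was not tested. Its 6 mast cell markers were all at 0, while replicate 3 summed to 14.1 units for them, with Tpsb2 and Cma1 highest at 5.65 each.

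Tumour genotypes were last compared with each other. In these tests limma called 0 receptors, with 0% of all genes called for VM against MYC, 0.00616% for VIM against MYC and 0.249% for VIM against VM tumours (0.174% higher and 0.0746% lower). At an unadjusted p under 0.05 the counts were 5, 3 and 3 of 10 receptors, where 13.8%, 14.6% and 11.4% of all genes passed (2212, 2379 and 1831 genes). With voom 0, 0 and 12 genes were called. The groups did not overlap for Egfr (−1.79), Erbb2 (−1.21), Erbb3 (−2.01), Fgfr1 (−3.62) and Kit (−2.91) between VM and MYC tumours, with adjusted p from 0.138 to 0.3. Between VIM and MYC tumours this held for Egfr (−1.05), Fgfr1 (−1.64), Fgfr2 (−3.42, adjusted p = 0.237) and Igf1r (−0.91), and between VIM and VM tumours for Erbb3 (1.21), Fgfr1 (1.98) and Kit (2.14, adjusted p = 0.197). Of all genes tested, 22.8%, 25.1% and 15.8% did not overlap in these comparisons. With all tissue groups in 1 fit, which also takes in the spread of VIM tumours and kidney, Egfr, Erbb3 and Fgfr1 were called between VM and MYC tumours (adjusted p = 0.0298, 0.014 and 0.0156). Egfr was called with the 3 MYC libraries taken separately (−1.86, adjusted p = 0.0499), a fit that counts both libraries of mouse 2983 as if from separate animals. The median log2 difference of genes with a mean of 50 units or more was −0.11 for VM against MYC tumours. Calls for VIM against VM tumours split as 28 higher and 12 lower, and as 18 and 13 after quantile normalization. Of all genes on the ligand, co-receptor, adaptor, inhibitor, target and other receptor lists, 0 were called in these comparisons.

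Promoters are shown because some members were called lower in cells with Dox, in which a MYC transgene is on. The letters CACGTG (the E-box bound by MYC among others), ACGTG and GCGTG (cores of the hypoxia response element) were searched on both strands. RefSeq windows of GRCm38.p6, from 250 bases before to 50 after the start of a gene, were at hand for 7 of the 10 members with 8 entries, and for Erbb3, Fgfr1 and Ret there was no entry. CACGTG holds ACGTG on both strands, so each CACGTG counts as 2 ACGTG. The longer motif was found in 2 members and in 7.15% of 32841 promoters, ACGTG in the same 2 members and in 19.6%, and GCGTG in 4 members and in 32.4%. The windows with CACGTG are those of Met, chr6:17463707-17464006 on the plus strand, with 75.7% G and C, and of Fgfr2, chr7:130266759-130267058 on the minus strand, with 43.7%. The windows of Axl, chr7:25788684-25788983 on the minus strand, and Egfr, chr11:16751953-16752252 on the plus strand, hold none of the 3 motifs, at 60.3% and 62.3% G and C. Met and Fgfr2, with CACGTG, were not called with Dox in any line, while Axl and Egfr were each called in some lines. Erbb3, Fgfr1 and Ret, which have no entry, were also called in some or all lines. Capitals mark CACGTG, and a match is a description of letters, not a binding site.
Met: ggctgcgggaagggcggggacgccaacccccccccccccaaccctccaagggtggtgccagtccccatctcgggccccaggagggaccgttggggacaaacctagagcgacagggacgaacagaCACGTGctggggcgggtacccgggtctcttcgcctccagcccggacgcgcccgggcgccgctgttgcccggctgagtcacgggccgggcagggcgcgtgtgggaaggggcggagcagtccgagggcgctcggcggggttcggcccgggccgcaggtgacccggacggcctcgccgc
Fgfr2: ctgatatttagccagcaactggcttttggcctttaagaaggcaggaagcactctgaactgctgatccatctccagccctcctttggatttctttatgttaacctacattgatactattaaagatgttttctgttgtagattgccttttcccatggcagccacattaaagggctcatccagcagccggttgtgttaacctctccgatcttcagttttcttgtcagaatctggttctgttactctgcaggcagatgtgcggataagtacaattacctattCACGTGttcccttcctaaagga
Axl: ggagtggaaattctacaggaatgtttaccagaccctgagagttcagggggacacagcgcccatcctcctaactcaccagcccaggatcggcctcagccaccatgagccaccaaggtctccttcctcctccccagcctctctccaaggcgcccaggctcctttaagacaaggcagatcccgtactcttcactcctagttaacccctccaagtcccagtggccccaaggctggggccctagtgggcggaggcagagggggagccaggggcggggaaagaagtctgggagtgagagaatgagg
Egfr: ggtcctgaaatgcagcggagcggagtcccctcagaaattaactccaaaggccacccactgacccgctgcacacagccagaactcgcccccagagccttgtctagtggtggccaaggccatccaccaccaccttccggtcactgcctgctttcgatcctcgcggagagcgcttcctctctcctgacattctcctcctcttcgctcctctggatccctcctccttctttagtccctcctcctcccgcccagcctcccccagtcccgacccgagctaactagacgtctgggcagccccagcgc

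In the mm9 build of the expression table, Met lies at chr6:17413800-17523980 and Ret at chr6:118101766-118147762. On the same build Axl lies at chr7:26542292-26573724 and Igf1r at chr7:75097713-75371484. For Fgfr2 the annotated record spans chr7:137305965-140315033 and reaches exons of Ctbp2, so its ends are uncertain. Egfr lies at chr11:16652206-16818161 and Erbb2 at chr11:98273784-98299030. Erbb3 lies at chr10:128004579-128026708, Fgfr1 at chr8:26624126-26686186 and Kit at chr5:75970941-76052747. Exons of this Fgfr2 record share 314 bases with Ctbp2 on the same strand. The authors' gene models can differ, and whether the Fgfr2 values hold reads of Ctbp2 was not tested. Erbb2 shares 9 bases with 1810046J19Rik and Fgfr1 125 bases with Gm16159 on the other strand.

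For each receptor the genes most like it were found by Pearson's r of log2 means over the 10 groups, among 13353 genes with a group mean of 50 units or more, as a description. For Met these were Sgtb (0.962) and D5Ertd579e (0.962), for Axl Dse (0.994) and Fn1 (0.987), for Egfr Jup (0.978) and Zswim6 (0.971), and for Erbb2 Ablim1 (0.949) and Wdr5b (0.932). Erbb3 was most like Man2b1 (0.984) and Tm7sf3 (0.984), Fgfr1 like Fnbp1 (0.950) and Rmnd5b (0.943), and Fgfr2 like Spred2 (0.968) and Bmpr2 (0.966). Igf1r was most like Tspyl1 (0.938) and Nbeal1 (0.937), Ret like Prelid1 (0.927) and Zfp238 (0.922), and Kit like Tmem35 (0.989) and Col3a1 (0.987), a fibrillar collagen.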

How the data were processed

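RNA was prepared with the Qiagen RNeasy kit, made into stranded TruSeq mRNA libraries and sequenced as paired ends on a NextSeq instrument, in 38 samples grouped by their labels. The authors aligned reads to mm9 with MapSplice, sorted and filtered them (Picard 1.64, SAMtools, UBU), estimated gene counts with RSEM on UCSC known genes and brought the upper quartile of every library to 1000. The deposited unit is thus a scaled signal that is never negative, and not a count. Upper quartiles were 998.1 to 1000. The worth of 1 read was taken as the commonest value between 0 and 3 units, and 94.1 to 95.9% of values under 20 reads were whole within 0.02.

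Python 3.11.15 with numpy 2.4.6, pandas 2.3.3 and matplotlib 3.10.9, and R 4.3.3 with limma 3.58.1, were used. limma with a mean-dependent prior was fitted to log2(value + 1) in the groups compared, over genes above 0 in at least 4 libraries for cells and 2 for tissues, after averaging libraries of 1 mouse. The fits were tested on simulated data. Alternatives were a pseudocount of 0.1 or 10, a filter on means under 10 units or none, TMM rescaling, quantile normalization, voom on estimated reads, all groups in 1 fit, a replicate block, B6 or KT kidneys alone, MYC libraries separately, each library left out, and for differences between lines the libraries without Dox. A fold against a group with every library at or under the floor is a lower bound against the floor per library, and a value counts as at the floor within the rounding of the table (0.0002 units). Exon lengths came from GENCODE M1 on mm9, which can differ from the authors' gene models, and the annotated Igf1r exons are short, so its level per kilobase is uncertain. The annotated Fgfr2 record reaches exons of Ctbp2, so the level of Fgfr2 per kilobase is uncertain as well.

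Members and lists were chosen with earlier results of these data known. Per list and comparison, up to 4 called genes in each direction were eligible for naming, those with the largest log2 difference among genes averaging 50 units or more in whichever group was higher. Ligands and co-receptors of members were also named, and genes singled out outside this rule were chosen after their values were seen. Line numbers of VM-3055 and VIM-3039 follow the study's results.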

Additional observations from a re-analysis of the deposited data

Results flagged for a closer look

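Axl in VM-3055 cells without Dox had a far value in replicate 2, at 9951 units, where the gap to the next library made up 0.857 of the range of the group, above Dixon's critical value. This library had an estimated 36.6 M reads, where the median of its group was 17.4 M. Over all genes its variance from the rest of the group was 9.67 to 17.5 times counting error, against 2.56 to 4.16 times between the others. Ret in MYC-2983 cells without Dox had a far value in replicate 3, at 3.47 units against 5.91 to 5.98 in the others, with a gap of 0.968 of the range. In these libraries 3 reads were worth 1.63 to 1.97 units, so the Ret values rest on few reads, and counting error was not set against the gap. The far values of Axl and Ret came from 2 of 66 groups examined, where chance gives about 1 in 20. The Dox difference of Fgfr1 was larger in VM-3055 than in MYC-2983 cells by −1.17 on the log2 scale in limma's interaction test. After quantile normalization this value was −0.65 and not called.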

How the results depend on the processing

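Of 2652 values of the receptors under the alternatives, 2523 kept their direction and side of the threshold, 71 lost a call, 15 gained one and 43 values without a call changed sign. These include 29 differences between lines without Dox, which use other libraries, with 5 calls lost, 4 gained and 2 changes of sign. No called value changed direction. Causes of the changes below were not tested.

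Counts that moved by over 1.5 times are given with the reported count after a slash. With a pseudocount of 10, genes called were 1936/2942 for Dox in MYC-2983, 2314/3635 for VM-3055 against MYC-2983, 2198/3515 for VIM-3039 against MYC-2983 and 1653/2691 for VIM-3039 against VM-3055 cells, 0/1 for VIM against MYC and 26/40 for VIM against VM tumours, and 675/1389, 674/1416 and 458/918 for the Dox difference of VM-3055 against MYC-2983, VIM-3039 against MYC-2983 and VIM-3039 against VM-3055, with 2/1 receptors in the first of these. With a mean of at least 10 units, they were 2342/3515 for VIM-3039 against MYC-2983 cells, 24/40 for VIM against VM tumours and 856/1389, 854/1416 and 541/918 for the Dox differences. A pseudocount of 0.1 gave 0/1 for VIM against MYC tumours. TMM gave 2/4 receptors for Dox in VM-3055 cells and 1/2 in MYC tumours against kidney, and quantile normalization 0/1 for the Dox difference of VM-3055 against MYC-2983. voom gave 1/2 receptors in MYC tumours against kidney, and 0/1 genes for VIM against MYC and 12/40 for VIM against VM tumours. All groups in 1 fit gave 1/2 receptors in MYC tumours against kidney, 407/0 genes and 3/0 receptors for VM against MYC, 719/1 genes for VIM against MYC and 469/40 for VIM against VM tumours. Against B6 kidneys alone 0/2 receptors were called in MYC and 2/6 in VIM tumours, and against KT kidneys alone 1/2 in MYC tumours. MYC libraries taken separately gave 1/2 receptors against kidney, 33/0 genes and 1/0 receptors for VM against MYC, and 7/1 genes for VIM against MYC tumours.

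With each library left out in turn, receptors called ran from 0 to 1 for the Dox difference of VIM-3039 against VM-3055, from 1 to 3 for that of VM-3055 against MYC-2983, from 1 to 2 in MYC and from 3 to 6 in VIM tumours against kidney. Genes called ran from 0 to 9 for VIM against MYC, from 2 to 45 for VIM against VM and from 0 to 4 for VM against MYC tumours. With the replicate number as a block, 3572 genes against 3554 were called for Dox in VM-3055 and 3397 against 3396 in VIM-3039 cells, 2696 against 2691 between these lines and 893 against 918 for their Dox difference, and no receptor call changed. Same-numbered libraries had correlations of −0.307 to 0.211, so the numbers were not taken as pairs. Ret rests on few reads in MYC-2983 cells, MYC tumours and kidney, and in VM tumour replicate 1 and VIM tumour replicate 3, where values lie near the floor.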
